A study of Mus musculus with 8 samples.

Results

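The clustered histone genes were taken as every non-control array probe whose gene name begins with Hist1h, Hist2h, Hist3h or Hist4h, which gave 49 of 34821 gene names, carried by 57 of 55681 probes. They comprise 6 probes for the linker histone H1, 16 for H2A, 13 for H2B, 8 for H3 and 14 for H4. The cells were C2C12 myotubes, made from a mouse myoblast line that fuses into multinucleate muscle fibres when growth medium is withdrawn. Before RNA was harvested on day 4 of differentiation, cells received either control siRNA or macroH2A1.1 siRNA, which targets 1 of the splice forms of the variant histone macroH2A1. Each group held 4 replicates, numbered 1 to 4 in both groups and called biological in the labels, with 1 single-colour array per replicate. Every sample came from this cell line, and both groups went through siRNA transfection.

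Clustered histone genes lie mostly in tandem groups and encode the bulk histones that package newly copied DNA. H2A pairs with H2B and H3 with H4 to form the core of the nucleosome, while H1 binds the linker DNA between cores. Most of these genes are transcribed during S phase, and their mRNAs end in a conserved stem-loop, bound by SLBP, in place of a poly(A) tail. Some also make longer, polyadenylated transcripts, chiefly in cells that have left the cell cycle. The labelling here primed reverse transcription with oligo-dT on 500 ng of total RNA, per the labels' protocols, which binds poly(A) tails, and how much of each probe's signal came from either kind of transcript was not tested. In bulk RNA, fewer cells of a kind and less RNA per cell cannot be told apart.

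The stem-loop was present in a few of the probes themselves, and these letters are shown because they mark where the processed histone mRNA ends. A run of 6 bases beginning with GG, a loop of 4 bases and the reverse complement of the 6 was whole in 6 of the 57 probes (10.5%), against 44 of all 55681 probes (0.079%). Capitals mark the stem-loop in windows of 30 bases.
Hist2h2aa2 (A_55_P1962084): taaaaaGGCTCTTTTCAGAGCCacccactg
Hist2h2bb (A_55_P2036883): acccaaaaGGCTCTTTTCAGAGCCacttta
Hist1h3a (A_51_P518621): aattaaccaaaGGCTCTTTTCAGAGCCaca
Hist1h3g (A_55_P2068260): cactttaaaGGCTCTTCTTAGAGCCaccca
Hist1h3i (A_55_P2121521): ataacaaaaGGCTCTTTTCAGAGCCccctc
Hist1h4m (A_55_P2135035): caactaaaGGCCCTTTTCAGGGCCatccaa
The same 16 letters stood in 4 of them and in no probe outside the members (0). Stem-loops began between base 384 and base 576 of the transcripts the array annotation lists. In contrast, 8 probes began past base 1300 of their listed transcript, among them Hist1h1c at base 1343, Hist2h2be at base 1850 and Hist1h2ac at base 2427. Those 8 probes lie past every stem-loop position found here, and 5 of the 8 were measured well enough to test. They are not the only ones. Other probes also began past base 576, among them Hist1h2bc at base 633, Hist3h2a at base 768 and Hist2h3c2 at base 958.

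Many copies of H2A, H2B, H3 and H4 are close to identical in coding sequence, so several probes read more than 1 gene. The array annotation lists more than 1 RefSeq gene for 16 of the 57 probes, 15 of them tested, with at most 4 transcripts listed for a probe. The last 60 coding bases of 4 H2A genes show how little separates them. Capitals mark bases that differ from the first line.
Hist1h2af: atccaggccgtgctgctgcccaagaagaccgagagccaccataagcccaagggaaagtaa
Hist1h2ak: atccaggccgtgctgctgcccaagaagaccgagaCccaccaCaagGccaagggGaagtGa
Hist1h2an: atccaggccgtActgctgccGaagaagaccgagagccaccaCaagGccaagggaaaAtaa
Hist2h2aa2: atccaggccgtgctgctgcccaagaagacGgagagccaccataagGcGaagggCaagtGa
Each of the lower 3 matches the first in 55 of 60 bases. The Hist1h2an probe is listed for H2ac22, H2ac23, H2ac24 and H2ac7, and the Hist2h2aa2 probe for H2ac18 and H2ac19, so these values belong to sets of copies and not to single genes. Over all members, 12 probe pairs matched in at least 48 bases, and their Pearson correlation over the 8 arrays had a median of 0.983 (0.496 to 0.999). These 12 pairs came from only 8 probes, all of H2A or H4. Pairs within a class with fewer matching bases had a median of 0.422 (211 pairs, -0.90 to 0.998), and pairs of different classes 0.295 (858 pairs). These correlations are descriptions, since all points share 8 arrays in 4 numbered pairs. Likeness and correlation did not always go together. Hist1h2ab and Hist1h2ag, an H2A pair picked after its values were seen, matched in 23 bases and correlated at 0.9985. The median of the 12 pairs is therefore not a measure of likeness alone. Hist1h2bc and Hist1h2bm matched in only 20 bases and correlated at 0.988, while Hist1h4c and Hist1h4k (A_55_P2091147) matched in 52 bases and gave the lowest value of the near-identical pairs, 0.496.

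**Figure D1:**
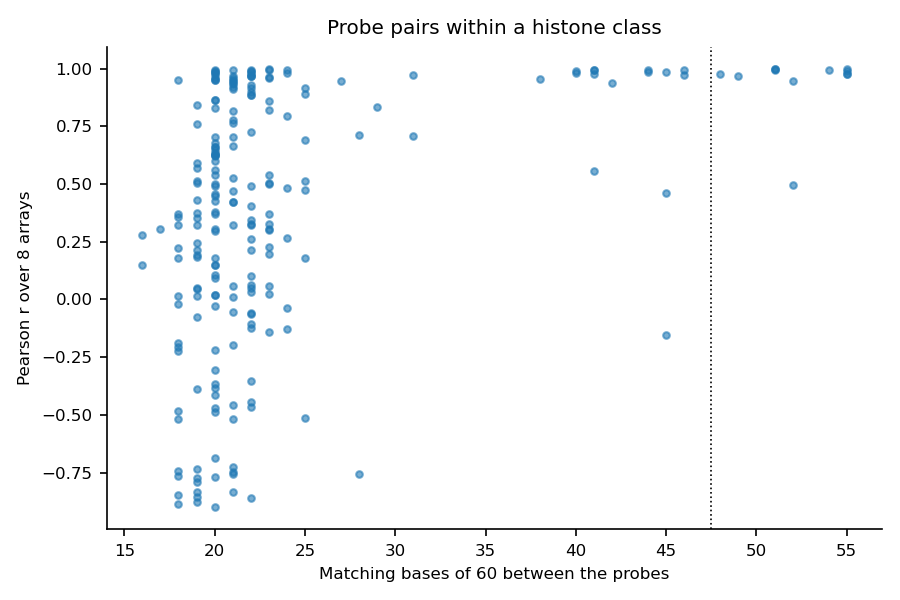
Each point is a pair of tested probes of the same histone class, with their matching bases of 60 on the horizontal axis and the Pearson correlation of their signals over the 8 arrays on the vertical axis. The 12 pairs right of the dotted line, at 48 or more matching bases, come from 8 probes and lie between 0.496 and 0.999. Pairs with fewer matching bases spread from -0.90 to 0.998.

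A probe was tested where at least 1 group had it well above background on every array, and 47 of the 57 histone probes passed. These were 5 of 6 H1, 14 of 16 H2A, 8 of 13 H2B, 8 of 8 H3 and 12 of 14 H4 probes. On all 8 arrays 45 were above background. Hist1h2al was so on 4 control arrays and 2 macroH2A1.1 siRNA arrays, and Hist1h3a on 3 and 4. Hist1h2al now carries a pseudogene symbol, H2af-ps2, in RefSeq. No array showed a signal well above background for Hist1h1d, Hist3h2ba, the pseudogene Hist3h2bb-ps and the Hist4h4 probe A_51_P148860. The other 6 untested probes, for Hist1h2ae, Hist2h2ab, Hist1h2bb, Hist1h2bp, Hist1h2bq and Hist2h4 (A_55_P1974967), were above background on 1 to 3 arrays in at least 1 group and on all 4 arrays of neither. The other Hist4h4 and Hist2h4 probes were above background everywhere, so for these genes the call depends on the probe. Why the probes differ was not tested. By the array annotation (mm9), 40 probes lie on chromosome 13, 10 on chromosome 3, 3 on chromosome 11 and 2 on chromosome 6, and 2 have no genome match.

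Across the 8 arrays, 46.9% to 49.77% of 59305 non-control spots were well above background and 0 were saturated, and pairwise array correlations lay between 0.9694 and 0.9929. All arrays shared 1 slide and 1 scan, and precision is limited by their number. Which splice forms of macroH2A1 the probes read was not tested, so the siRNA target was checked at gene level, on 3 Macroh2a1 probes. Each was lower in all 4 siRNA samples than in any control sample, by -1.42 (SE 0.25), -0.99 (SE 0.11) and -1.11 (SE 0.12) on the log2 scale. An exact permutation test gave p = 0.0286 for each (n = 4, two-sided), the smallest the groups allow. In limma their adjusted p values were 0.138, 0.054 and 0.054 without pairing, and 0.033, 0.023 and 0.023 once the replicate number entered as a block. That paired fit is given beside the other because arrays of the same number deviated together. Arrays of 1 number are also neighbours on the slide, and effects of culture and of position cannot be told apart. Control arrays lay in columns 1 and 3 of the slide and siRNA arrays in columns 2 and 4. Effects of the siRNA and of the column therefore cannot be told apart either.

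No clustered histone probe passed the threshold for macroH2A1.1 siRNA against control siRNA. The count was 0 of 47 in limma without pairing, where 0.004% of all 24988 probes passed, and 0 of 47 paired, where 3.15% passed (adjusted p under 0.05). At an unadjusted p under 0.05 the counts were 0 of 47 without pairing, against 10.2% of all probes, and 8 of 47 (17%) paired, against 23.2%. Of those 8, 3 were higher with macroH2A1.1 siRNA, all of them H2B probes (6.38%, against 11.4% of all probes), and 5 were lower (10.6%, against 11.8%). The groups overlapped for every tested histone probe, whereas 6.78% of all probes had groups that did not. The median difference of the members was -0.008 (log2), against -0.01 over all probes, and single differences ran from -0.50 to 0.35. Without pairing, the 95% interval lay within a 2-fold change in either direction for 35 of 47 probes (74.5%, against 89.7% of all probes). With pairing, 38 of 47 lay within 1.5-fold (80.9%, against 81.5% of all probes), so at these sizes larger changes were outside the intervals of those probes.

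**Figure D2:**
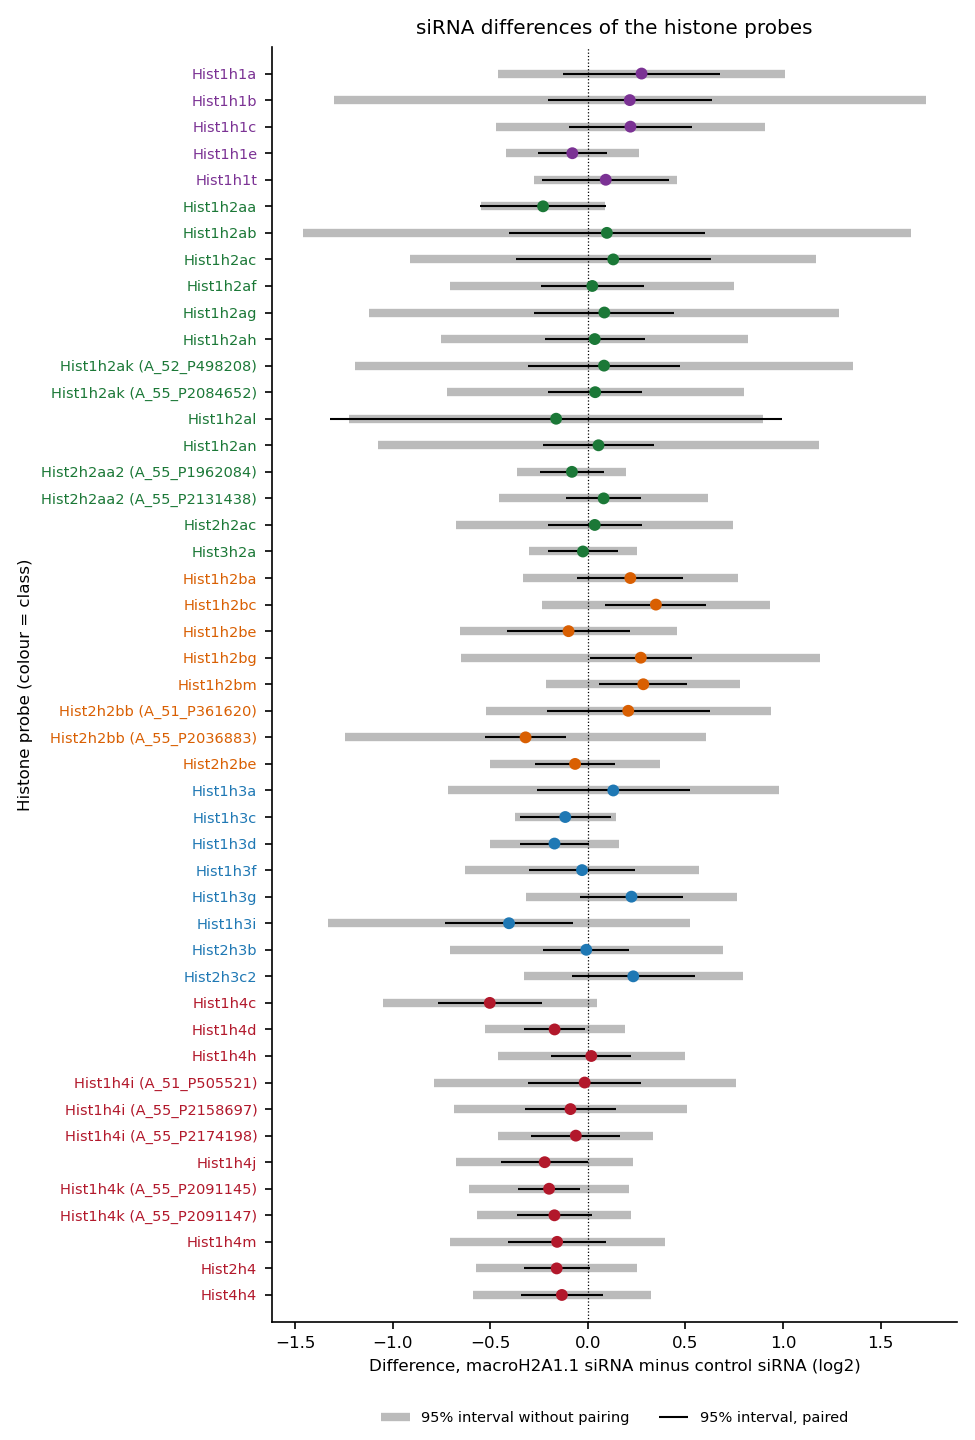
Points give the log2 difference, macroH2A1.1 siRNA minus control siRNA, of each of the 47 tested histone probes, coloured by class, with 95% intervals without pairing in grey and from the paired fit in black. Differences run from -0.50 for Hist1h4c to 0.35 for Hist1h2bc, and every grey interval includes 0.

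The classes were spread differently around 0 without any probe passing. The median difference was 0.21 for H1, 0.04 for H2A, 0.21 for H2B, -0.02 for H3 and -0.16 for H4. Above 0 were 4 of 5 H1, 10 of 14 H2A, 5 of 8 H2B, 3 of 8 H3 and 1 of 12 H4 probes, against 47.7% of all probes. All 4 pairs were higher with macroH2A1.1 siRNA for 4 of 47 members (8.51%, against 16.5% of all probes). These were 4 of 8 H2B probes and no probe of another class (0). All 4 pairs were lower for 9 of 47 members (19.1%, against 16.7%): 5 of 12 H4, 2 of 8 H3, 1 of 8 H2B and 1 of 14 H2A probes. Since H4 probes share copies, 5 such probes are fewer than 5 separate measurements. Among the 4 H2B probes, Hist1h2ba, Hist1h2bc and Hist1h2bm correlated at 0.949 to 0.988 over the arrays. The 4 may therefore also be fewer than 4 separate measurements. Differences between classes were not tested. The signs of the medians for H1, H2A, H2B and H4 were the same under each scaling tried, while that of H3 was above 0 with normexp (0.02) and with the authors' series values (0.02).

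Among H4 probes, Hist1h4c had the smallest p of all members. The probe (mm9, chromosome 13, 23790223 to 23790282, minus strand) is listed for H4c1, H4c3 and H4c6. Its log2 signals, relative to the 75th percentile of each array as for all levels given here, were -0.41, 0.41, 0.35 and -0.37 in control replicates 1 to 4, and -0.66, -0.08, -0.49 and -0.81 in the siRNA replicates. Every siRNA sample was below the control of its number, but the groups overlapped, since siRNA replicate 2 stood above controls 1 and 4. The difference was -0.50 (SE 0.24, 95% interval -1.05 to 0.05), where limma without pairing gave an adjusted p of 0.533 and the paired fit 0.069 (SE 0.11). Hist1h4c passed the paired threshold with normexp (adjusted p = 0.0272), with the authors' series values (0.0288) and with a trended robust fit (0.0153). Hist1h4j, listed for H4c11 and H4c12, had 0.18, 0.52, 0.03 and 0.20 in controls and -0.05, 0.54, -0.40 and -0.04 with siRNA, a difference of -0.22 (SE 0.20, limma adjusted p = 0.801, paired 0.22). Other H4 probes lay closer to 0. Hist4h4, the lone H4 gene on chromosome 6, read 2.95, 3.40, 2.86 and 3.03 in controls and 2.79, 3.41, 2.51 and 3.0 with siRNA. Its difference was -0.13 (SE 0.20, limma adjusted p = 0.911, paired 0.40). Hist1h4h read -2.62, -2.85, -3.05 and -3.24 in controls and -2.42, -2.82, -3.24 and -3.21 with siRNA, and its difference of 0.02 (SE 0.21, limma adjusted p = 0.992, paired 0.92) was the only one above 0 in the class.

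H2B held the members with the largest differences upward. Hist1h2bc, on the plus strand of chromosome 13 at 23784254 to 23784313 (mm9), read 5.02, 5.28, 5.63 and 4.60 in controls and 5.70, 5.55, 5.76 and 4.91 with siRNA. Each siRNA sample was above the control of its number, by 0.14 to 0.68, and the groups overlapped. The difference was 0.35 (SE 0.26, 95% interval -0.23 to 0.93), where limma without pairing gave an adjusted p of 0.737 and the paired fit 0.124 (SE 0.10). Hist1h2bm, whose probe is listed for H2bc12, H2bc14, H2bc7 and H2bc9, read 3.79, 4.10, 4.40 and 3.58 against 4.35, 4.35, 4.53 and 3.77. It differed by 0.28 (SE 0.22), limma adjusted p = 0.755 and paired 0.142. Both probes passed the paired threshold in the trended robust fit alone (adjusted p = 0.0301 and 0.0379). Hist2h2be, read near base 1850 of a long transcript, had -2.15, -2.91, -2.14 and -2.44 in controls and -2.30, -2.78, -2.36 and -2.46 with siRNA, a difference of -0.07 (SE 0.19, limma adjusted p = 0.96, paired 0.681), with the sign turned to 0.02 under normexp.

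The 2 Hist2h2bb probes lay on opposite sides of 0 and were singled out after their values were seen. The probe with the stem-loop (A_55_P2036883) read 0.98, 2.19, 1.23 and 0.85 in controls and 0.72, 2.07, 0.74 and 0.44 with siRNA, lower in every pair by 0.13 to 0.49. The difference was -0.32 (SE 0.40), and its limma adjusted p was 0.881 without pairing and 0.097 paired. It passed the paired threshold with normexp (adjusted p = 0.0271) and the trended robust fit (0.0316). The other probe (A_51_P361620), from base 1341 of a listed transcript and annotated on chromosome 3 at 96082754 to 96082813 (mm9), read -0.39, -1.19, -0.62 and -1.08 in controls and 0.28, -0.72, -0.80 and -1.22 with siRNA. It was higher with siRNA in pairs 1 and 2 and lower in pairs 3 and 4, and its difference was 0.21 (SE 0.32, limma adjusted p = 0.914, paired 0.509). The probes correlated at -0.21 over the 8 arrays.

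H1 and H3 held fewer probes. Hist1h1a read -1.93, -2.0, -2.83 and -1.86 in controls and -1.77, -1.16, -2.59 and -2.01 with siRNA, a difference of 0.28 (SE 0.32, limma adjusted p = 0.862, paired 0.369). Hist1h1c, a replication-dependent H1 gene measured here at base 1343, read 4.00, 4.32, 4.49 and 3.24 in controls and 4.55, 4.20, 4.54 and 3.64 with siRNA. Replicate 4 was the lowest in both groups, and the difference was 0.22 (SE 0.30, limma adjusted p = 0.898, paired 0.364). The testis H1 gene Hist1h1t read -3.23, -2.68, -2.71 and -3.22 against -3.05, -2.78, -2.92 and -2.71, a difference of 0.09 (SE 0.16, limma adjusted p = 0.929, paired 0.719). Hist1h3d, whose probe is listed for 4 genes, read 5.70, 5.92, 5.63 and 5.59 in controls and 5.53, 5.90, 5.40 and 5.33 with siRNA. It was lower in each pair by 0.02 to 0.26, with a difference of -0.17 (SE 0.14, limma adjusted p = 0.782, paired 0.227). Hist1h3c read 1.46, 1.34, 1.53 and 1.55 in controls and 1.56, 1.26, 1.15 and 1.45 with siRNA, a difference of -0.12 (SE 0.11, limma adjusted p = 0.825, paired 0.507). Hist1h3i, a stem-loop probe chosen after its values were seen, had the largest H3 difference, -0.40 (SE 0.41, limma adjusted p = 0.832, paired 0.147).

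H2A had the smallest share of its variation between the siRNA groups. The testis H2A gene Hist1h2aa read -2.43, -2.30, -2.21 and -2.77 in controls and -2.79, -2.51, -2.76 and -2.57 with siRNA, a difference of -0.23 (SE 0.14, limma adjusted p = 0.659, paired 0.356). Hist3h2a, an H2A gene on chromosome 11, read 2.60, 2.68, 2.89 and 2.47 against 2.73, 2.62, 2.76 and 2.43. Its difference of -0.03 (SE 0.12, limma adjusted p = 0.977, paired 0.862) turned to 0.01 with the authors' series values. For the 14 H2A probes the replicate number took a median of 94.9% of the sum of squares and the siRNA 0.283%.

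Histone probes differed more between replicate numbers than between siRNA groups. Over the 47 members the replicate number, with 3 degrees of freedom, took a median of 87.6% of the sum of squares and the siRNA, with 1, took 4.6%, against 65.2% and 10.3% over all probes. An F-test of the replicate number in the paired limma fit, chosen after the pairing had been seen, passed for 29 of 47 members (61.7%), against 14.7% of all probes. They were 2 of 5 H1, 10 of 14 H2A, 5 of 8 H2B, 4 of 8 H3 and 8 of 12 H4 probes. As several probes share copies, those 29 are fewer than 29 separate measurements. Without replicate 2 of both groups the count was 0 of 47, with 1 of 24988 over all probes, and without replicate 3 it was 4 of 47 (779 over all probes). Without replicate 1 it was 18 (1145 over all probes) and without replicate 4 it was 21 (3595), so the result rests most on replicates 2 and 3.

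**Figure D3:**
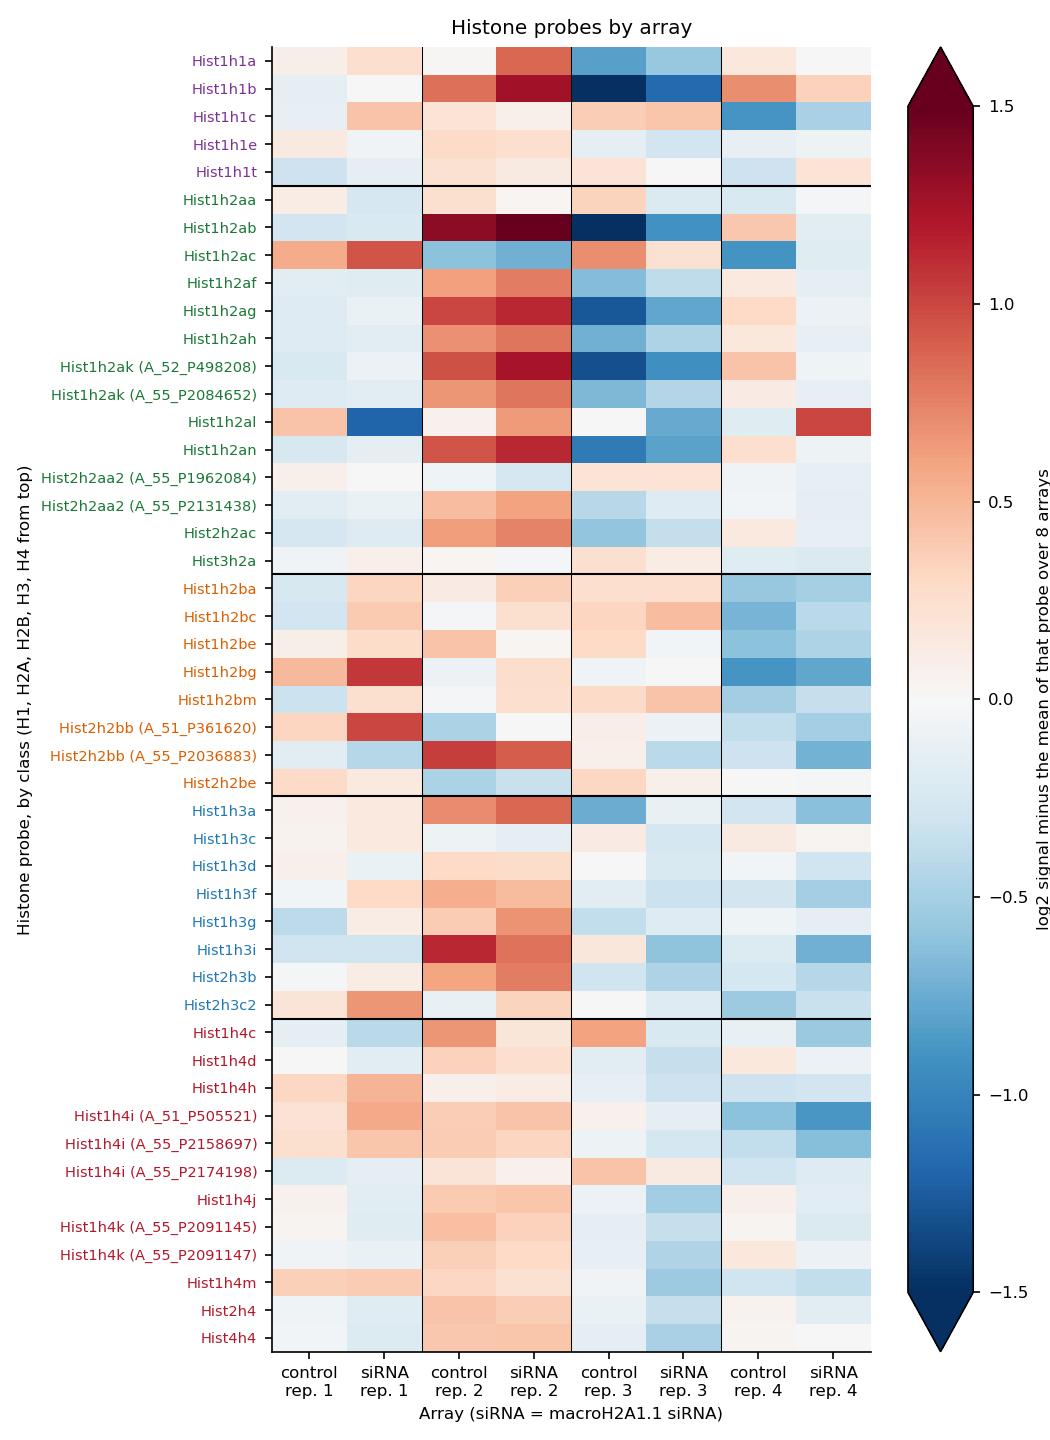
Rows are the 47 tested histone probes grouped by class and columns the 8 arrays with those of 1 replicate number side by side. Colour gives the log2 signal minus that probe's mean over the arrays, and most H2A probes are high in both arrays of replicate 2 and low in both of replicate 3, while most H2B probes are low in replicate 4.

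The most frequent order among H2A and H4 probes put replicate 2 highest and replicate 3 lowest. Replicate 2 was the highest of its group in both groups for 25 of 47 members (53.2%, against 15.5% of all probes), and replicate 3 the lowest in both for 19 (40.4%, against 16.1%). Both held for 18 members (38.3%, against 4.72%): 9 of 14 H2A, 6 of 12 H4, 2 of 5 H1, 1 of 8 H3 and 0 of 8 H2B probes. Since H2A and H4 probes share copies, those 18 are fewer than 18 separate measurements. Hist1h2ab, chosen after its values were seen, read 2.90, 4.53, 1.56 and 3.59 in controls and 2.97, 4.69, 2.29 and 3.03 with siRNA. Its range over the 8 arrays was 3.13, while the siRNA difference was 0.10 (SE 0.68, limma adjusted p = 0.987, paired 0.81). Hist1h1b, chosen likewise, read 1.05, 2.01, -0.62 and 1.89 in controls and 1.19, 2.45, 0.03 and 1.54 with siRNA. For H2B another order was more frequent. Replicate 4 was the lowest in both groups for 6 of 8 H2B probes, against 14 of 47 members (29.8%) and 10.8% of all probes. Hist1h2bc, with 4.60 and 4.91 there, is an example, and Hist1h1c, given above, followed the same order.

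Probes of the same gene could follow different orders. For Hist2h2aa2, the shared coding-end probe (A_55_P2131438, chromosome 3 at 96043781 to 96043840, mm9, minus strand) read 6.46, 7.10, 6.21 and 6.58 in controls and 6.52, 7.23, 6.43 and 6.48 with siRNA. Its stem-loop probe (A_55_P1962084, 96043669 to 96043728) read 3.33, 3.19, 3.47 and 3.21 in controls and 3.27, 3.01, 3.46 and 3.13 with siRNA. In this probe 38 of the 60 bases lie past the stem-loop, against 3 to 6 in the other probes with a whole stem-loop. The coding-end probe was highest in replicate 2 of both groups and the stem-loop probe highest in replicate 3, and they correlated at -0.775. The siRNA differences were 0.08 (SE 0.23) and -0.08 (SE 0.12), with limma adjusted p of 0.96 and 0.91, and 0.582 and 0.505 paired. In contrast the 2 Hist1h2ak probes, at the start and the end of the coding sequence, correlated at 0.979.

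**Figure D4:**
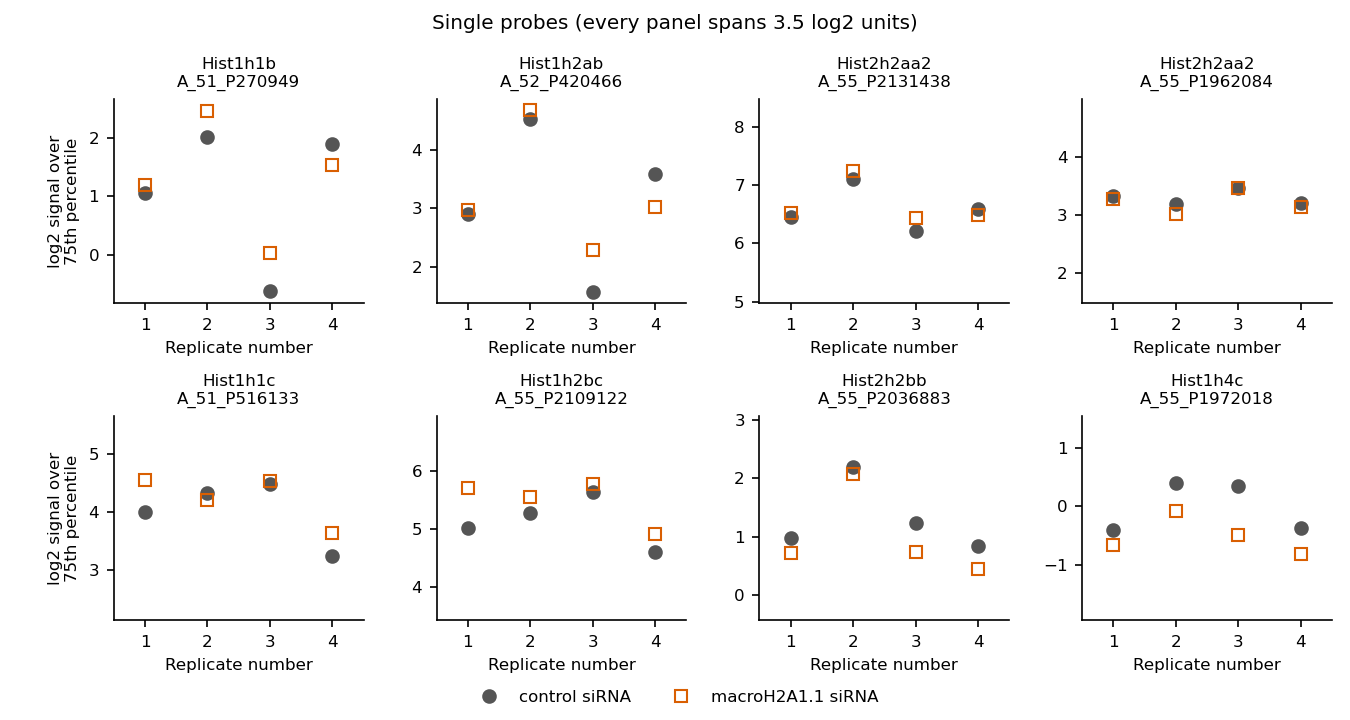
Log2 signal of 8 single probes over each array's 75th percentile, by replicate number, for control siRNA (filled circles) and macroH2A1.1 siRNA (open squares), with every panel spanning the same range. Hist1h1b and Hist1h2ab are highest in replicate 2 and lowest in replicate 3 of both groups, the 2 Hist2h2aa2 probes follow opposite orders, and Hist1h4c is lower with siRNA in every pair.

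Genes of S phase and proliferation shared part of the order of the H2A probes. The list, which holds replication factors, S phase cyclins and mitotic genes, had 28 tested probes for 21 of its 24 genes. Its level, the median deviation of its probes from their own means, was -0.07, 0.39, -0.77 and 0.37 in controls and -0.28, 0.62, -0.81 and 0.07 with siRNA. The same level of the 14 H2A probes was -0.18, 0.62, -0.62 and 0.13 in controls and -0.15, 0.75, -0.41 and -0.12 with siRNA. Both levels were highest in replicate 2 and lowest in replicate 3 of both groups, but the probes of the S phase list were split between more than 1 order. Replicate 3 was lowest in both groups for 21 of its 28 probes, replicate 2 highest in both for 13, and both held for 12. Another 10 put replicate 4 highest in both groups, those of Mcm2, Mcm3, Mcm4, Mcm5, Mcm6, Mcm7, Cdt1, Rrm1 and Ccne1, genes of replication licensing, nucleotide supply and entry into S phase, named after their values were seen. None of the 47 histone probes put replicate 4 highest in both groups (0, against 8.05% of all probes). Mcm6, for example, read 3.96, 3.83, 3.69 and 4.89 in controls and 3.86, 4.14, 3.97 and 4.45 with siRNA. The level of the 8 H2B probes, -0.04, -0.02, 0.27 and -0.55 in controls and 0.30, 0.25, 0.04 and -0.48 with siRNA, was lowest in replicate 4. Of the 28 probes 20 passed the F-test of the replicate number, against 14.7% of all probes. None of the 28 passed for the siRNA (0, with and without pairing). Ccna2, an S phase cyclin, read 0.87, 2.23, -0.33 and 0.87 in controls and 0.84, 2.46, -0.40 and 0.57 with siRNA. Mki67, a marker of cycling cells, put replicate 2 highest and replicate 3 lowest on both probes, while the polymerase clamp gene Pcna had replicate 3 among its middle values (limma adjusted p of its replicate term 0.315).

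**Figure D5:**
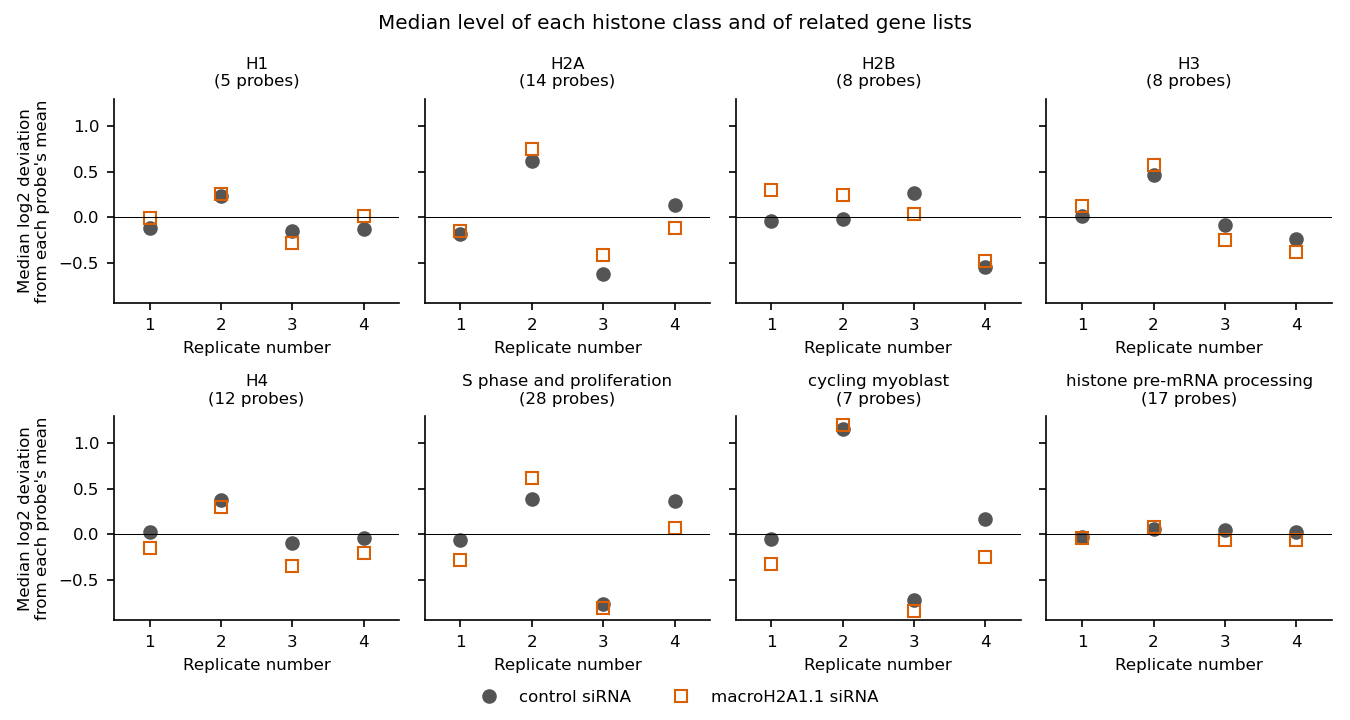
Each panel gives the median log2 deviation of a set's probes from their own means, by replicate number, for control siRNA (filled circles) and macroH2A1.1 siRNA (open squares). H2A, S phase and cycling myoblast sets are highest in replicate 2 and lowest in replicate 3, and the last 2 of these share their Mki67 and Ccnb1 probes. H2B is lowest in replicate 4, and the histone pre-mRNA processing set stays between -0.06 and 0.09.

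Some cell type marker lists varied with the replicate number as well. The undifferentiated and cycling myoblast list, with 7 tested probes for 4 of 6 genes, had levels from -0.72 to 1.16 in controls and -0.84 to 1.2 with siRNA, highest in replicate 2 of both groups. Its Pax7 and Myf5, which mark muscle precursors, were not above background in enough arrays to test. Most of its tested probes, those of Mki67 and Ccnb1, are also in the S phase list, so the levels of these lists are not separate. Of the genes not shared, Id1 was highest in replicate 2 of both groups. Id3 was highest in replicate 4 of both groups, at 2.15 in controls and 1.47 with siRNA. The myotube list (10 probes, 8 of 8 genes) ran from -0.39 to 0.09 in controls and -0.17 to 0.40 with siRNA, lowest in replicate 2 of both groups. Its level was higher with siRNA in each of the 4 pairs, all 10 probes had a difference above 0 (against 47.7% of all probes), and the median difference was 0.31 (log2). The level of the fibroblast markers (5 probes) ran from -0.24 to 0.55 and -0.54 to 0.60. It was lowest in replicate 2 and highest in replicate 3 of both groups, the reverse of the H2A level. The F-test passed for 4 of the 5 probes, but Col1a1 and Postn among them were lowest in replicate 4 of both groups. The median difference of the fibroblast markers was -0.24. Macrophage markers (8 probes) ran from -0.12 to 0.07 and -0.18 to 0.28, did not share an order between the groups at their low end, and 1 of 8 passed the F-test. It passed for 6 of 7 myoblast and 3 of 10 myotube probes, against 14.7% of all probes. The median difference of the myoblast list was -0.29, with 0 of 7 probes above 0, and that of the macrophage list -0.007, with 4 of 8 above 0. That median leaves out Cd68, which differed most in the list, by 1.315 (SE 0.56, limma adjusted p = 0.470, paired 0.113). Cd68 read -1.66, -1.56, -1.18 and -1.91 in controls and -1.09, 0.56, 1.07 and -1.58 with siRNA. In the paired fit 1 myotube probe was higher with siRNA, Mylpf, a fast myosin light chain (limma adjusted p = 0.030), and 1 fibroblast probe lower, Postn (0.025). The part of cell composition in the histone values was not tested.

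Genes that process, vary or carry the histones were set beside them. Histone pre-mRNA processing genes (17 probes, 13 of 15 genes) had 0 calls in either fit and a median difference of 0.0004 (log2), and 2 passed the F-test. Slbp, the stem-loop binding protein, differed by -0.20 (SE 0.21) and -0.17 (SE 0.19) on its 2 probes, with limma adjusted p of 0.841 and 0.847, and 0.28 and 0.32 paired, and Npat, an activator of histone gene transcription, was not above background in enough arrays to test. Replication-independent and variant histones (20 probes, 12 of 13 genes) had 0 calls without pairing and 3 paired, all for Macroh2a1, and 8 passed the F-test. H1f0, a replacement H1 of resting cells, differed by -0.32 (SE 0.21, limma adjusted p = 0.695, paired 0.198). H2ax differed by 0.10 (SE 0.29, limma adjusted p = 0.962, paired 0.478), and its probe was highest in replicate 2 of both groups. The 3 probes of the replacement H3 gene H3f3b differed by -0.06 to -0.17 with none past the threshold in either fit. One of these rests on 7 arrays, as its spot was an outlier in control replicate 1. Histone chaperones and assembly factors (32 probes, 17 genes) had 0 calls in either fit, a median difference of 0.008 and 4 probes past the F-test. Over all probes, 14.7% passed the F-test.

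Promoters are shown for 3 genes whose probes are described above: H1f5 (Hist1h1b) and H2ac4 (Hist1h2ab), highest in replicate 2, and H1f2 (Hist1h1c), lowest in replicate 4. The sequences are the 100 bases before the annotated start, from RefSeq (GRCm38.p6, a build other than that of the probe positions). Capitals mark the motif TATAAA, the motif TATATA, which can overlap it, and the motif CCAAT, on either strand.
H1f5, chr13:21780626-21780725, minus strand: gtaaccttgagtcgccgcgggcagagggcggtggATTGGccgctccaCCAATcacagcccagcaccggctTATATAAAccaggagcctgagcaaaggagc
H2ac4, chr13:23750988-23751087, plus strand: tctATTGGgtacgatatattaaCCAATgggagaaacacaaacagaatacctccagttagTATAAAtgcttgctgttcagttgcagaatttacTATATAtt
H1f2, chr13:23738707-23738806, plus strand: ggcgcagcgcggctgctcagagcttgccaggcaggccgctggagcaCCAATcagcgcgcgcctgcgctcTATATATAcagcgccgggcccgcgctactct
Each of the 3 windows holds TATATA and CCAAT, while TATAAA stands in those of H1f5 and H2ac4 and not in that of H1f2. CCAAT is marked on both strands in H1f5 and H2ac4 and on 1 strand in H1f2. Whether these letters go with either order was not tested. In the 250 bases before the start, TATAAA was present in 22 of 42 member genes with an entry (52.4%), against 14.3% of 27025 genes. TATATA was present in 28.6% against 6.19%, and CCAAT in 35 of 42 (83.3%) against 37.5%. A match is a description of letters, not of a site in use.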

How the data were processed

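Total RNA (500 ng) was labelled with Cy3 by oligo-dT priming, per the labels' protocols. Spot intensity values were deposited as the authors' Agilent Feature Extraction 10.7.3.1 output, whose processed signal is background-subtracted, per the file headers (build mm9). The deposited series table by the authors holds log2 values, a scale it does not state (r 0.99764 to 0.99954 with each array's log2 mean signal, every median 6.34) and served as an alternative. What background handling they had is not given in the sources used here.

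From log2 processed intensity, the 75th percentile of the array was subtracted. Control spots were dropped, outlier spots (143 to 236 per array) were treated as missing, and spots were averaged per probe. Probes were fitted with limma 3.58.1 in R 4.3.3 (lmFit, eBayes, two-sided, Benjamini-Hochberg over 24988 probes, threshold 0.05), with no covariate and again with the replicate number as a block. Deviations correlated within numbers at 0.579, 0.498, 0.629 and 0.354, above the 0.1 required in every pair. The labels give these numbers but do not describe the cultures, so the p-values cover only variation among these samples, which may be technical. The treatment label of the siRNA group names a knockout and its titles an siRNA, and the titles were followed. Names were matched to RefSeq (GRCm38.p6) by accession for 52 probes and by older symbol for 5.

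Named probes are the 2 of smallest p in each class, fixed members (Hist1h1c, Hist1h2bc, Hist2h2be, Hist1h4h, Hist4h4, Hist3h2a, Hist3h2ba, Hist1h1t) and fixed other genes, with all probes of such a gene where signs disagree. Others are said to be chosen later. Mylpf, Postn, Cd68, Id1, Id3 and the replicate 4 genes of the S phase list were also chosen after their values were seen. Members and lists were chosen with earlier results of these data known. The fits were tested on simulated data. Alternatives were normexp (offset 50), quantile and median scaling, series values, 2 other filters, 1 probe per gene, array row or column as a block, a trended robust fit, and leaving out arrays or pairs. No column held arrays of both groups, so the column block cannot separate the siRNA from the column. Python 3.11.15, pandas 2.3.3 and matplotlib 3.10.9 handled files and figures.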

Additional observations from a re-analysis of the deposited data

Results flagged for a closer look

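Within groups of 4, 3 of the 94 group values of the tested histone probes held a sample far from the other 3, by Dixon's criterion (gap over range, at the 95% level), which chance passes in about 1 of 20 groups. Hist1h1a read -2.83 in control replicate 3, where the other controls lay between -2.0 and -1.86. The Hist2h2aa2 coding-end probe read 7.23 in macroH2A1.1 siRNA replicate 2, against 6.43 to 6.52 in the others. Hist1h2ba, a testis H2B gene, read 1.56 in macroH2A1.1 siRNA replicate 4, against 2.31 to 2.41.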

How the results depend on the processing

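The count of histone probes called without pairing was 0 under every alternative run, among them the replicate block and leaving out replicate 2 of both groups (chosen after seeing the data). With the block the lowest adjusted p of a member was 0.069. In the paired fit the count of 0 became 2 with normexp, 1 with the authors' series values and 5 with a trended robust fit, and it was 0 with quantile and median scaling, other filters, 1 probe per gene and each pair left out (0 each). The 5 added Hist1h4k (adjusted p = 0.0482) to Hist1h4c, Hist2h2bb, Hist1h2bc and Hist1h2bm. Over all probes the paired count of 786 was 2399 with normexp, 1903 with series values, 2628 with the trended robust fit, 0 unfiltered and 0 to 385 with a pair left out, and without pairing 1 became 0 to 24 where the replicate number was not a block. The replicate number term passed for 27 to 36 members under other scalings and for 18, 0, 4 and 21 without pair 1, 2, 3 and 4. The related lists without Macroh2a1 had 0 of 94 probes called with the replicate block and without it. The Macroh2a1 differences of -1.42, -0.99 and -1.11 passed with the replicate block and not without it. Under other scalings 6 of 47 members changed sign, and 27 did when an array was left out. Of the named probes, Hist2h2be turned with normexp to 0.0166 in both fits, and Hist3h2a with series values to 0.01 in both. With an array left out, Hist2h2be ran from -0.2335 to 0.0364, Hist3h2a from -0.0889 to 0.0514, Hist4h4 from -0.2928 to 0.00564, Hist1h4h from -0.149 to 0.1245 and Hist1h1c from -0.0397 to 0.4154. With a pair left out, Hist3h2a ran from -0.0766 to 0.0111, Hist1h4h from -0.0425 to 0.0854 and Hist1h1t from -0.0459 to 0.1947. The cause was not tested. Signal over background leaves 10 probes unmeasured, and what each near-identical copy contributes to a shared probe was not tested.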
